A study of Capsicum chinense and Capsicum frutescens with 8 samples.

Results

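miR165 and miR166 were followed through the conserved miRNA listings of 2 peppers, Capsicum chinense and C. frutescens. The members are all listed entries whose name carries miR165 or miR166 as its full miR number. They came to 35 entry names of 2312, of which 33 were miR166 and 2 were miR165. An entry is a name taken from another plant, such as pta-miR166a from loblolly pine or gma-miR166k from soybean, with 1 printed sequence and 1 read count in each library that lists it.

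Both miRNAs are made from hairpin precursors, and in flowering plants the strand cut from the 3p arm is the one that guides silencing. Its targets are the messenger RNAs of the HD-ZIP III transcription factors, which set the upper side of leaves, maintain shoot meristems and pattern the vasculature. In Arabidopsis the Argonaute protein AGO10 binds these small RNAs and keeps them from silencing their targets in the meristem, and miR165 and miR166 differ there by a single base near the 3′ end.

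The study sequenced small RNA from stem, flower, fruit and leaf of 1 genotype of each species, Bhut jolokia for C. chinense and Acc. 4 for C. frutescens, grown in a glasshouse; the labels name no treatment. Each of the 8 libraries was 1 sample, made from the pooled RNA of 3 biological replicates. The fruit samples pooled stages from 5 to 60 days after anthesis, flower samples were buds of mixed size and age, and leaves were fully expanded. A species difference was therefore judged over the 4 tissues, and within 1 tissue 1 library stood against 1, with intervals that cover counting error only.

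The sequences are shown first because most member reads were listed with the same stretch of 21 nt. That stretch was shared by all 8 printed forms of pta-miR166a and is the 3p core used below. The 5p core is the 21 nt shared by the 8 printed forms of gma-miR166c-5p. Capitals mark the seed, bases 2 to 8, through which a small RNA first pairs with its target.
3p core of pta-miR166a: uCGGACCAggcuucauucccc
5p core of gma-miR166c-5p: gGAAUGUUgucuggcucgagg
The 3p core stood whole in 19 of 196 listings, under 4 names, and these listings carried 4511083 reads, 88.1% of all member reads. The 5p core stood whole in 8 listings with 12962 reads, 0.253%. Laid against each other with overhangs of 2 nt, the cores faced each other at 19 positions, of which 14 were Watson-Crick pairs, 2 were G-U pairs and 3 were unpaired. Neither core occurred in any of the 9105 other listings, which included 3386 of predicted miRNAs. Nor did an inner 14 nt of the 3p core or the first 14 nt of the 5p core.

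The leading entry, pta-miR166a, was printed longer than a mature miRNA in every library, with 28 to 36 nt. The forms differed only outside the core, which is in capitals here, and so each line shows what was added around the same 21 nt.
C. chinense stem: gugauuUCGGACCAGGCUUCAUUCCCCu
C. chinense flower and fruit: gacgaucUCGGACCAGGCUUCAUUCCCC
C. chinense leaf: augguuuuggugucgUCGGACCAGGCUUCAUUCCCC
C. frutescens stem: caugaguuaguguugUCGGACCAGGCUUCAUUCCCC
C. frutescens flower: uaguguugUCGGACCAGGCUUCAUUCCCC
C. frutescens fruit: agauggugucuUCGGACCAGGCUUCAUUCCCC
C. frutescens leaf: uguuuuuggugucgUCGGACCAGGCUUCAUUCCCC
The bases before the core were shared by some pairs of libraries and not by others. The 2 leaf libraries, from different species, had the same 11 bases before the core, C. frutescens stem and flower had the same 8, and C. chinense flower and fruit had the same 7. The other pairs, of 28 in all, shared 1 base or none. The 28-nt form of C. chinense flower and fruit was also printed as gma-miR166k in C. frutescens stem and fruit and as bdi-miR166e-3p in C. chinense leaf, so 1 printed sequence was counted under 3 names. Of 4842 sequences of the other conserved entries, 24 appeared under several names. The files print 1 sequence for each name and library and do not say whether a count covers that sequence alone.

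miR166 was the most read family in every library. Its share of the conserved reads listed was 89.2% in C. chinense stem, 93.9% in flower, 90.6% in fruit and 63.7% in leaf. In C. frutescens it was 76.6% in stem, 42.5% in flower, 60.5% in fruit and 66.8% in leaf. Stem, flower and fruit of C. chinense thus stood above all 4 C. frutescens libraries, and C. chinense leaf stood among those. The miR166 reads of C. chinense came to 1258891 for stem, 1013348 for flower, 555874 for fruit and 516854 for leaf, and those of C. frutescens, in the same order, to 867242, 175485, 567475 and 164762. In all, the members took 5120865 of 6646698 listed reads. Since tissues were ground whole, fewer cells that make a miRNA and less of it per cell cannot be told apart.

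**Figure D1:**
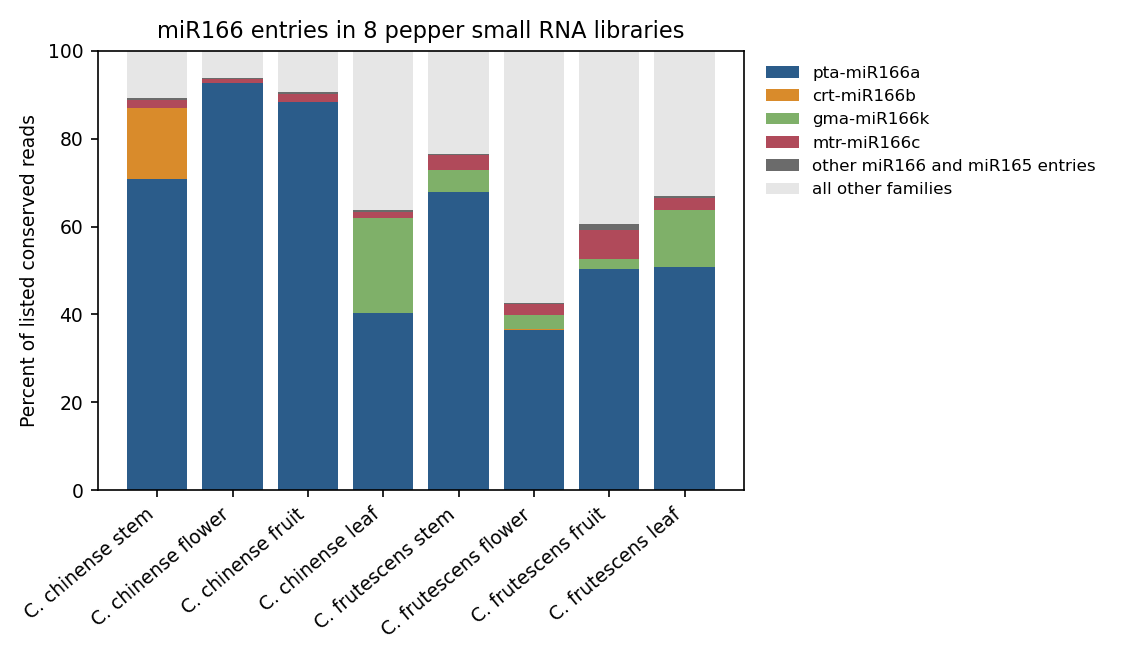
Share of listed conserved reads (percent, y axis) in the 8 libraries (x axis), stacked by entry: 4 leading miR166 entries, all other member entries together, and all other families in light grey. pta-miR166a is the largest member block in every library, crt-miR166b is visible only in C. chinense stem, and gma-miR166k is absent from C. chinense stem, flower and fruit.

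miR165 was a minor partner. C. chinense had 181 miR165 reads from stem, 326 from flower, 75 from fruit and 77 from leaf, against 131, 35, 86 and 23 from the same tissues of C. frutescens. As shares of listed reads these were 0.0128%, 0.0302%, 0.0122% and 0.00948% for C. chinense, then 0.0116%, 0.00848%, 0.00917% and 0.00933% for C. frutescens. C. chinense flower stood highest, and its 95% Clopper-Pearson interval of 0.0270% to 0.0337% did not overlap that of any other library. For every 10000 miR166 reads there were 1.35 to 1.99 miR165 reads in 7 libraries and 3.22 in C. chinense flower. The order of miR165 shares over the 8 libraries followed that of miR166 with a Spearman correlation of 0.95, the highest of 70 families compared, whose median was -0.36. A share of 1 family falls when another rises, and miR166 holds most reads; on the TMM-scaled values, where effective library sizes replace totals, the correlation was 0.98 and the median 0.05. On shares miR2599 came next with 0.71 and miR162, which targets the DICER-LIKE1 messenger RNA in Arabidopsis, followed with 0.45. On TMM-scaled values these were 0.67 and 0.24, ranks 5 and 26 of the 70. All points in these correlations share their libraries, and they are given as a description over 8 libraries.

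Of the 2 miR165 names, aly-miR165a-3p held 926 reads and aly-miR165b-5p held 8. The 5p entry was listed with 1 read in each stem library and 6 in C. frutescens fruit, and not in the other 5 libraries. aly-miR165a-3p differed from the 3p core by 1 base. Positions are counted from 1 at the 5′ end of the 21 nt, with the base of the core first, so that U17C means that the core has U at position 17 and the entry has C. The 9 miR166 entries below that aligned over the whole 3p core likewise differed from it by 1 base in most or all of their listings. They were taken after the values were seen, as all entries of that kind but 1, and are shown with the differing base in capitals.
aly-miR165a-3p, U17C: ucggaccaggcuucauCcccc
ppt-miR166k, U1C: Ccggaccaggcuucauucccc
mes-miR166i, C2U: uUggaccaggcuucauucccc
osa-miR166e-3p, G4A: ucgAaccaggcuucauucccc
mtr-miR166d, A5G: ucggGccaggcuucauucccc
cme-miR166i, C19U: ucggaccaggcuucauucUcc
mtr-miR166c, C20U: ucggaccaggcuucauuccUc
crt-miR166b and osa-miR166m, C21U: ucggaccaggcuucauucccU
csi-miR166b, C21G: ucggaccaggcuucauucccG
By seed, mes-miR166i, osa-miR166e-3p and mtr-miR166d differ from the 3p core, at positions 2, 4 and 5, and miR165 and the other entries shown share its seed. Against the pta-miR166a reads of the same library, the miR165 entry had a lowest, median and highest value of 1.38, 1.82 and 3.26 reads per 10000. Other entries 1 base away lay in the same range, with 1.60, 2.32 and 3.58 for osa-miR166e-3p and 2.08, 2.79 and 3.80 for cme-miR166i. ppt-miR166k lay lower, at 0.0369 to 1.32 with a median of 0.930. The range of miR165 thus overlapped those of some single-base relatives with a miR166 name and not of others. mes-miR166i, changed within the seed, was higher at 11.2 to 27.9 with a median of 14, and mtr-miR166c, changed at the last base but 1, was highest among those listed in all 8 libraries at 112 to 1283 with a median of 426. Whether such entries come from separate precursors or from misread bases was not tested.

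**Figure D2:**
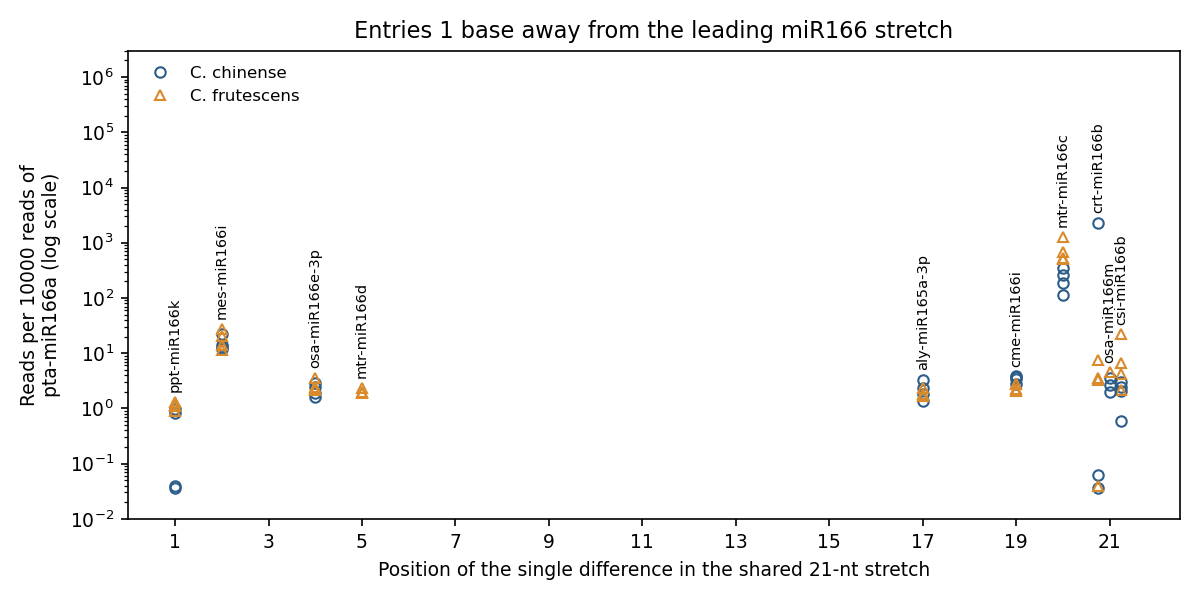
Reads per 10000 pta-miR166a reads of the same library (log scale, y axis) for the entries shown 1 base away from the 3p core, placed at the position of its difference (x axis, 1 is the 5′ end; 3 entries share position 21). Circles are C. chinense libraries and triangles are C. frutescens libraries; a library without the entry has no symbol. aly-miR165a-3p lies at the level of osa-miR166e-3p and cme-miR166i, and the C. frutescens triangles of mtr-miR166c lie above its C. chinense circles.

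Within miR166, pta-miR166a led every library. Of the miR166 reads in stem, flower, fruit and leaf it made up 79.5%, 98.6%, 97.6% and 63.2% for C. chinense and 88.6%, 86.1%, 83.1% and 75.8% for C. frutescens. C. chinense had 1001082, 999410, 542511 and 326784 of its reads in that order of tissues, and C. frutescens had 768798, 151007, 471792 and 124971. The low share in C. chinense stem went with crt-miR166b, and that in both leaves with gma-miR166k. crt-miR166b, an entry named from mandarin, had 227971 reads in the stem of C. chinense, where it took 18.1% of miR166 reads. Elsewhere it had 0 reads in C. chinense flower, 2 in fruit and 2 in leaf, and 3, 115, 157 and 44 in C. frutescens. Its C21U ending was also that of osa-miR166m, which was listed in C. chinense flower with 202 reads, fruit with 142 and leaf with 118 and in C. frutescens stem with 347, and in no other library. In C. chinense stem crt-miR166b was printed with 26 nt and in the other libraries with 22 to 24 nt.

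gma-miR166k was another entry with a sharp split between libraries. It was listed with 176273 reads in C. chinense leaf and with 56087, 13160, 21935 and 32322 reads in C. frutescens stem, flower, fruit and leaf, and it was not listed in C. chinense stem, flower or fruit. Set against a floor of 3 reads per library, its share was 23306-fold higher in C. frutescens stem, 11474-fold in flower and 4784.9-fold in fruit. The lower 95% counting limits of these ratios were 18953, 9329.7 and 3891. In leaf the C. frutescens share was 0.604 times the C. chinense share. The 5 listings printed the core or its first 19 nt preceded by auc.
C. chinense leaf: aguaaugaucUCGGACCAGGCUUCAUUCC
C. frutescens stem and fruit: gacgaucUCGGACCAGGCUUCAUUCCCC
C. frutescens flower: aucUCGGACCAGGCUUCAUUCCCCu
C. frutescens leaf: aucUCGGACCAGGCUUCAUUCCCC
The stem and fruit form is the one listed as pta-miR166a in C. chinense flower and fruit, so the absence of the name from those libraries is not an absence of the sequence. Summed over all names, listings printed with the whole 3p core took 79.5%, 98.6%, 97.6% and 63.3% of miR166 reads in the 4 tissues of C. chinense, and 95.1%, 93.6%, 87.0% and 95.5% for C. frutescens. In C. chinense leaf gma-miR166k was printed 2 bases short of the core and is not in that sum. Of 21 conserved entries with at least 100 reads in each of the 5 libraries that list gma-miR166k, 2 others were nearly missing from the same 3 libraries. pab-miR3711 and ppt-miR894 each had 4 reads in C. chinense stem, 1 in flower and 1 in fruit, against 4078 to 102023 and 1552 to 20562 in the 5 libraries. What these libraries share in handling was not tested.

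mtr-miR166c, an entry named from barrel medic with C20U, was an abundant entry in every library. From stem, flower, fruit and leaf it had 26122, 11227, 9990 and 11532 reads for C. chinense and 38295, 10476, 60529 and 6695 for C. frutescens. That was 2.07%, 1.11%, 1.80% and 2.23% of the miR166 reads for C. chinense and 4.42%, 5.97%, 10.7% and 4.06% for C. frutescens, so the ranges of the species did not overlap. Its share of all listed reads was 1.83-fold higher in C. frutescens in stem, 2.44-fold in flower, 3.97-fold in fruit and 1.91-fold in leaf. Per miR166 read the mean was 1.80% ± 0.497 (SD, 4 tissues) in C. chinense and 6.28% ± 3.04 in C. frutescens, higher in 4 of 4 tissues, with p = 0.125 in a two-sided exact sign-flip permutation test over the tissue pairs (0.188 adjusted over 6 such tests). This is the smallest p that 4 pairs allow, and the entry was put to this test after its values were seen. Among the 19 member entries that passed the read filter, 2 had all 4 C. frutescens libraries above all 4 of C. chinense per miR166 read, mtr-miR166c and ppt-miR166k, and none had the reverse. The members that passed are not all 35, and among all 151 entries tested 4.64% stood higher in this way and 1.32% lower. For ppt-miR166k the separation was narrow and rested on few reads. Its highest C. chinense value was 0.00643% in stem, from 81 reads, and its lowest C. frutescens value 0.00668% in leaf, from 11. In leaf its C. frutescens value was 1.08 times that of C. chinense, with a counting interval of 0.490 to 2.20 that includes equality. The intervals in stem, flower and fruit left equality out, but C. chinense flower and fruit had only 4 and 2 reads.

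mes-miR166i, named from cassava, was listed in all 8 libraries. C. chinense had 1382, 1177, 691 and 736 of its reads and C. frutescens 1578, 214, 1315 and 140, in the tissue order above. The remaining entries without an arm in their name were smaller. csi-miR166b, from sweet orange, was chosen here after its values were seen: it had 1034 reads in C. frutescens fruit and 19 to 303 in the other 7 libraries. ptc-miR166q, from poplar and chosen likewise, had 433 reads in C. chinense fruit and 7 to 106 elsewhere. Of all 35 names, 15 were listed in all 8 libraries, 2 in 1 library only and 14 had under 50 reads in total.

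By the arm in the name, miR166 entries with no arm held 16 names and 5104507 reads, 99.7% of member reads. miR166 entries named 5p held 15 names and 14169 reads, 0.277%, and those named 3p held 2 names and 1255 reads. The 3p names were osa-miR166e-3p, with 28 to 285 reads in the 8 libraries, and bdi-miR166e-3p, with 202 reads in C. chinense leaf only. The name and the sequence did not always match. Some entries named 5p printed the 3p core with changes, in 15 listings with 163 reads in all, and gra-miR166d, which has no arm in its name, printed the 5p core with changes. Part of the complement of the 3p core was printed in 2 listings with 4 reads. The complement of the 5p core was printed in part or whole, with changes, in 4 listings with 5 reads. By the score used, 19 listings with 202 reads could be placed on neither core. Among them was zma-miR166g-5p in C. frutescens stem, with 20 reads, though its sequence holds a run of bases from the 5p core.

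The 5p arm gives the strand that is usually discarded, and over all printed lengths its share was under 1% in 7 libraries. In stem, flower, fruit and leaf, 5p-named entries made up 0.0751%, 0.0290%, 0.140% and 0.106% of the miR166 reads of C. chinense and 0.128%, 0.0587%, 1.76% and 0.235% of those of C. frutescens. C. frutescens fruit stood far above the rest, and flower was the lowest tissue in both species. Per miR166 read, the C. frutescens value was 1.70 times that of C. chinense in stem, 2.02 times in flower, 12.6 times in fruit and 2.23 times in leaf. The means were 0.0876% ± 0.0473 (SD, 4 tissues) and 0.546% ± 0.814, higher in C. frutescens in 4 of 4 tissues, with an exact sign-flip p of 0.125 (0.188 adjusted over 6), and without the fruit pair the difference of the means fell from 0.459 to 0.0707 percentage points. By sequence instead of name, the shares were 0.0733%, 0.0275%, 0.139% and 0.0973% for C. chinense and 0.117%, 0.0519%, 1.74% and 0.226% for C. frutescens, which left the order of the libraries as it was. Among miR166 reads printed at 18 to 24 nt, 5p-named entries made up far more in some libraries, 9.03%, 2.11%, 0.102% and 0.372% for C. chinense and 28.3%, 0.91%, 75.7% and 1.17% for C. frutescens. On this length class C. frutescens was higher in 3 of 4 tissues and lower in flower, with a mean difference of 23.6 percentage points (exact sign-flip p 0.375). The class rests on the 1 form printed for each entry and library, so this test also reflects which form was printed. gma-miR166c-5p was printed with 24 nt in every C. frutescens library. In C. chinense it had 21 nt in flower, but 25 nt in stem and 31 nt in fruit and leaf, outside the class.

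gma-miR166c-5p carried most 5p reads, with 671, 209, 666 and 500 from the tissues of C. chinense and 746, 87, 9729 and 354 from those of C. frutescens. Its share of listed reads was 9.56-fold higher in C. frutescens fruit than in C. chinense fruit, against 1.39-fold in stem, 1.09-fold in flower and 2.33-fold in leaf. It was printed as the bare core in C. chinense flower and with added bases elsewhere, shown here with the core in capitals.
C. chinense stem: acgcGGAAUGUUGUCUGGCUCGAGG
C. chinense flower: GGAAUGUUGUCUGGCUCGAGG
C. chinense fruit and leaf: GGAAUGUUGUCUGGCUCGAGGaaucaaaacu
C. frutescens stem, flower and fruit: aggGGAAUGUUGUCUGGCUCGAGG
C. frutescens leaf: ggGGAAUGUUGUCUGGCUCGAGGu
The other named 5p entries did not share 1 pattern. sly-miR166c-5p, named from tomato and 2 bases from the 5p core at G20C and G21A, had its highest share of listed reads in stem in both species, at 0.0176% for C. chinense, close to 0.0166% in its fruit, and 0.0229% for C. frutescens. It had 248 reads in the stem of C. chinense and 259 in that of C. frutescens, 70 and 102 in C. chinense flower and fruit, 37 in C. frutescens fruit and 1 to 14 in the other 3 libraries. osa-miR166g-5p had 144 reads in C. frutescens fruit and at most 2 elsewhere, and its sequence could be placed on neither core. aly-miR166f-5p, with U7A against the 5p core, had 45 reads in C. frutescens fruit and at most 4 elsewhere.

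**Figure D3:**
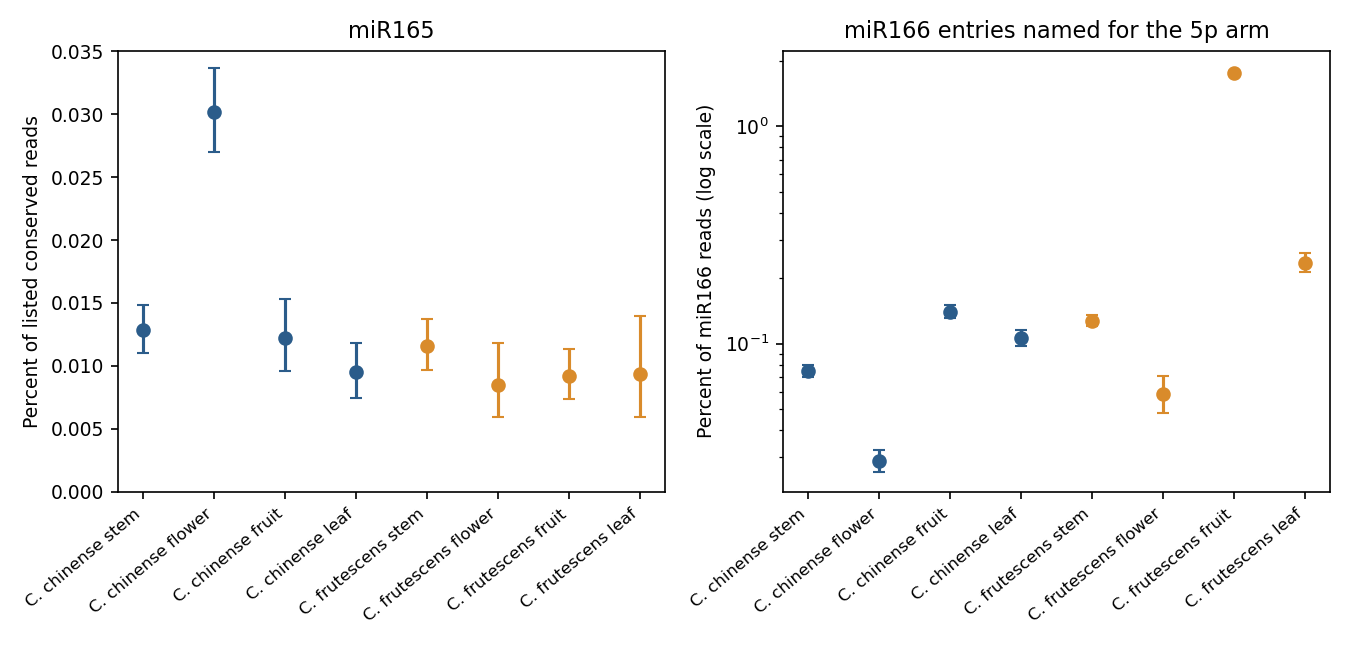
Left, miR165 reads as percent of listed conserved reads; right, 5p-named entries as percent of miR166 reads on a log scale, for the 8 libraries (x axis; blue C. chinense, orange C. frutescens). Bars are 95% Clopper-Pearson intervals for counting error only. C. chinense flower stands highest on the left at 0.0302%, and C. frutescens fruit on the right at 1.76%.

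Printed length also separated the libraries. Entries printed at 18 to 24 nt, the usual size of a miRNA, made up 0.242%, 1.38%, 2.11% and 2.45% of the miR166 reads in the 4 tissues of C. chinense, ordered as above, and 0.451%, 6.45%, 2.33% and 20.1% of those of C. frutescens. Both stems were lowest and C. frutescens leaf was highest, where gma-miR166k was printed with 24 nt. The class follows the 1 form printed for each entry and library. mtr-miR166c was printed with 24 nt in C. chinense flower, fruit and leaf and in C. frutescens flower. It gave 11227 of the 13938 class reads in C. chinense flower and 10476 of 11318 in C. frutescens flower. Printed with 25 or 26 nt in both stems and in C. frutescens fruit and leaf, it fell outside the class there. The share was higher in C. frutescens in 4 of 4 tissues, with means of 1.54% ± 0.975 (SD, 4 tissues) and 7.33% ± 8.87 and an exact sign-flip p of 0.125 (0.188 adjusted over 6); the difference of 5.79 percentage points was 1.84 without the leaf pair. Counted against all conserved reads printed at 18 to 24 nt, miR166 took 19.6%, 66.4%, 64.4% and 61.1% for C. chinense and 20.5%, 72.0%, 10.0% and 89.0% for C. frutescens. On this length class C. frutescens was above C. chinense in stem, flower and leaf and below it in fruit, which is not the order seen over all lengths. The longest printed member had 36 nt and the shortest 19 nt, over 130 distinct sequences. Of the 33 member names listed in at least 2 libraries, 93.9% were printed with more than 1 sequence, against 94.2% of the other conserved names.

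Between species, the miR166 share in C. frutescens was 0.859 times that of C. chinense in stem (95% interval 0.856 to 0.861), 0.453 times in flower (0.451 to 0.455), 0.668 times in fruit (0.666 to 0.671) and 1.05 times in leaf (1.04 to 1.06). The mean was 84.3% ± 13.9 (SD, 4 tissues) in C. chinense and 61.6% ± 14.3 in C. frutescens, lower in 3 of 4 tissues, with an exact sign-flip p of 0.25 (0.30 adjusted over 6). Without the flower pair the mean difference of -22.7 percentage points became -13.2. The ratio of miR166 reads to reads of all other families was 0.397 times as high in C. frutescens in stem, 0.0481 times in flower, 0.159 times in fruit and 1.15 times in leaf. Some entries are often traced to fragments of ribosomal or transfer RNA, such as ppt-miR894 and the miR6300 group. Within each tissue these entries stood higher in the species with the lower miR166 share. Over all libraries these entries did not follow the reverse order of miR166. They took 2.63%, 0.452%, 1.44% and 15.7% of the listed reads for C. chinense and 9.36%, 9.98%, 9.05% and 10.9% for C. frutescens, so they were higher in C. frutescens in stem, flower and fruit and lower in leaf. With them left out of the total, miR166 was lower in C. frutescens in 4 of 4 tissues, at 75.5% against 75.0% in leaf, and the mean difference was -20.0 percentage points (exact sign-flip p 0.125).

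The miR165 share of C. frutescens was 0.902 times that of C. chinense in stem (0.715 to 1.14), 0.281 times in flower (0.192 to 0.399), 0.75 times in fruit (0.544 to 1.04) and 0.984 times in leaf (0.589 to 1.58). As a share of listed reads, the counting interval left out equality in flower alone. Per read of all other families the miR165 ratio was 0.417 in stem (0.331 to 0.525), 0.0298 in flower, 0.179 in fruit (0.129 to 0.247) and 1.08 in leaf (0.646 to 1.74), so it was lower in 3 of 4 tissues on that scale. The share of listed reads was lower in C. frutescens in 4 of 4 tissues, with means of 0.0162% ± 0.00946 (SD, 4 tissues) and 0.00964% ± 0.00134 and an exact sign-flip p of 0.125 (0.188 adjusted over 6). The mean difference of -0.00654 percentage points became -0.00149 without the flower pair. Per 10000 miR166 reads the means were 1.87 ± 0.898 and 1.60 ± 0.266, with 2 tissues in each direction and an exact p of 0.75.

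**Figure D4:**
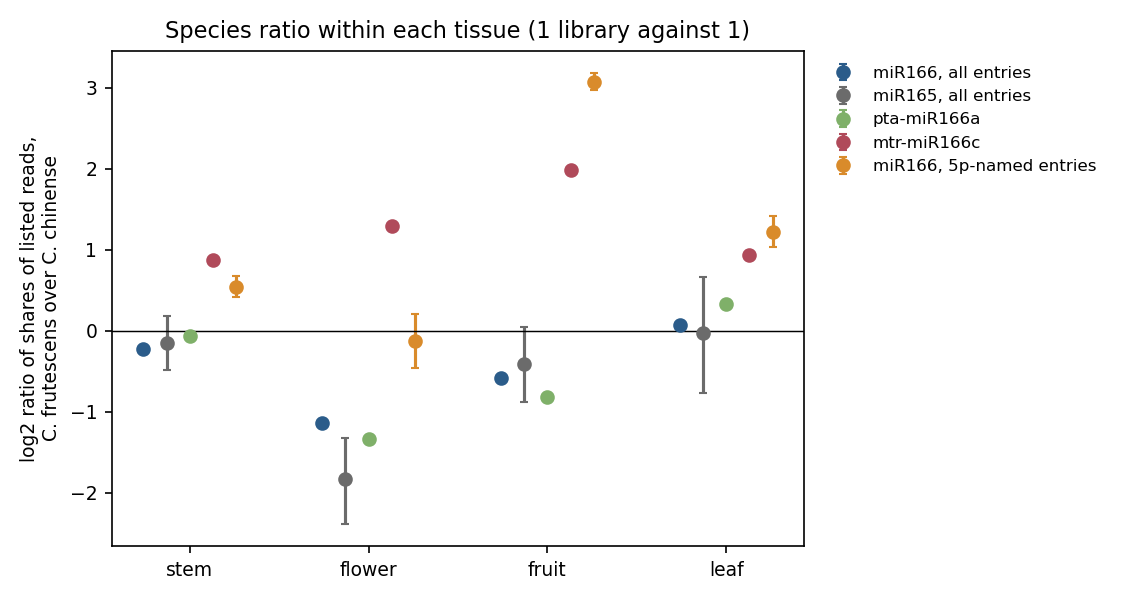
log2 of the C. frutescens share over the C. chinense share of listed reads (y axis) in each tissue (x axis) for miR166, miR165, 2 entries and the 5p-named entries; bars are 95% counting intervals, often smaller than the symbol. mtr-miR166c lies above 0 in all 4 tissues, miR166 and pta-miR166a lie below 0 in stem, flower and fruit and above it in leaf, and the 5p-named entries are highest in fruit.

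A fit over all families, with species and tissue as terms, gave miR166 a log2 fold change of -1.27 in C. frutescens against C. chinense (SE 0.714) and an adjusted p of 0.525 in edgeR's quasi-likelihood test. miR165 had -1.41 (SE 0.745, edgeR adjusted p 0.520). Neither of the 2 members was called, where 1.41% of the 71 families tested were. By DESeq2 both were called lower in C. frutescens, with log2 fold changes of -1.41 for miR166 (adjusted p 0.0356) and -1.55 for miR165 (adjusted p 0.0240), but that tool called 18.3% of families, and 7.04% as lower. limma-voom called neither, with an unadjusted p of 0.0402 for miR166 and an adjusted p of 0.277, and in edgeR neither had an unadjusted p under 0.05. The call therefore rests on the tool, and a single library for each species and tissue limits all of them.

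The tissue terms set each tissue of both species against the other 3 tissues. For miR166 the log2 differences were 0.67 in stem, 0.70 in flower, -0.20 in fruit and -1.17 in leaf, and for miR165 they were 0.45, 1.54, -0.54 and -1.45. None was called for either miRNA by edgeR (adjusted p from 0.493 to 0.939), DESeq2 or limma-voom, and edgeR called 0% of the families in each of these contrasts. DESeq2 called 7.04% of families in stem, 15.5% in flower, 21.1% in fruit and 19.7% in leaf. The unadjusted p was under 0.05 for miR165 in flower by DESeq2 and in no other of these tissue tests. With total listed reads as the scale, the flower value of miR166 became -0.19 and the fruit value 0.0628, so its direction in these tissues depends on the scale. The median over all families was 0.23 in flower and -0.64 in leaf under the TMM scale, and -0.64 and 0.48 under total reads.

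Split by arm, the species log2 fold changes were -1.51 for miR165 3p, -1.63 for miR166 3p, -1.36 for miR166 without an arm and 0.31 for miR166 5p (SE 1.0). None of the 4 was called, with 0% of 100 family arms called by edgeR, and none had an unadjusted p under 0.05. Over entries, 19 members were fitted, of which 15 were negative and 4 positive, with a median of -1.57 against -0.19 over all 151 entries, of which 41.1% were positive, and 0% of the 151 entries were called by edgeR. An unadjusted p under 0.05 was found for 2 of the 19 members, beside 14 of all 151 entries. The 2 were gma-miR166k and mtr-miR166d, which were not listed in several libraries, so that their fitted values depend on the prior count. pta-miR166a had -1.85 (SE 1.13, edgeR adjusted p 0.518) and mtr-miR166c -0.063 (SE 0.949, edgeR adjusted p 0.993). When reads were scaled on miR166 reads, a scale added after the data were seen, 12 of the 19 members were positive, beside 78.2% of all entries, and pta-miR166a was at -0.0022 and mtr-miR166c at 1.74 (SE 0.801, edgeR adjusted p 0.376). mtr-miR166c was also positive, from 0.12 to 1.27, under the other scales and filters tried, so the sign of its TMM value is not stable.

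The 8 other families that act in leaf polarity, meristems and organ boundaries that were listed for comparison all passed the read filter. They were miR160, miR167 and miR390, which act on auxin response, miR164, which limits organ boundary factors of the NAC family, miR319, which targets TCP factors of leaf shape, miR394, which acts in the meristem, miR396, which targets growth-regulating factors, and miR168, which targets AGO1. Between species 3 were higher and 5 lower in C. frutescens, with a median of -0.20 against 0.20 over all 71 families, and miR168 and miR319 stood at 2.12 and 2.10. edgeR called none of the 8 and none had an unadjusted p under 0.05, while DESeq2 called miR168 and miR319 higher. DESeq2 called 18.3% of all 71 families in this comparison. In leaf against the other tissues 2 were positive and 6 negative, with a median of -1.74 against -0.64 over all families, and in stem 5 were positive and 3 negative, with a median of 1.03 against -0.029. In flower the split was 5 to 3 with a median of 0.39, and in fruit 4 to 4 with 0.039. edgeR called none in any tissue. Its unadjusted p was under 0.05 for 2 of the 8 in stem, 1 in flower, 2 in fruit and 2 in leaf. Over all 71 families these counts were 5, 6, 13 and 12. DESeq2 called 3, 3, 3 and 2 of the 8 in the same order, where it called 5, 11, 15 and 14 of the 71. Its calls among the 8 were higher in stem, mixed in flower and fruit, and lower in leaf. In read numbers all 8 stayed far under miR166, from 12 reads of miR164 in C. frutescens leaf to 44636 of miR396 in C. frutescens fruit.

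**Figure D5:**
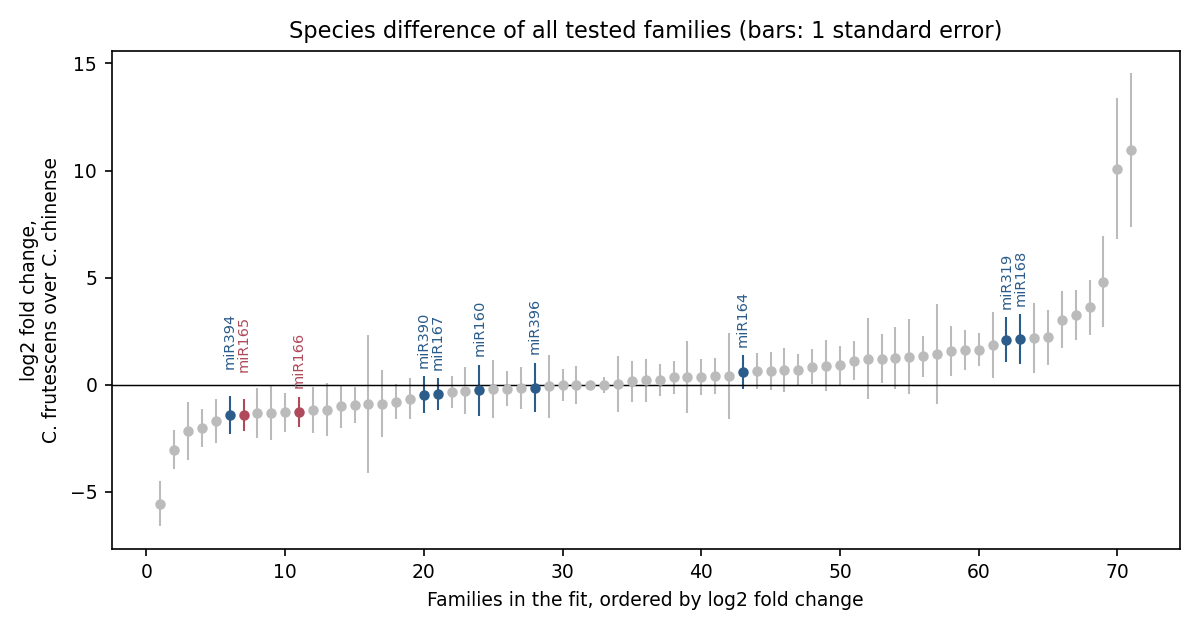
Species log2 fold change (y axis, C. frutescens over C. chinense) of 71 families ordered by value (x axis). Bars are 1 SE, derived from the log2 fold change and the F statistic of edgeR's quasi-likelihood test. miR165 and miR166 are red, the 8 families of leaf polarity, meristem and boundary development blue, all others grey. Both members lie below 0 among families whose bars overlap theirs.

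Libraries ranged in depth between 246508 listed reads (C. frutescens leaf) and 1412110 (C. chinense stem), and they differed in how many member names they listed. C. chinense flower listed 19 and C. frutescens fruit 33. At an expected depth of 246508 reads each, the first would list 15.7 and the second 26.8, so the library with most names and the one with fewest stayed the same.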

How the data were processed

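Small RNA of 8 libraries, 1 for each of 2 species and 4 tissues, was analysed from read counts per entry as deposited by the authors, in 16 sheets of conserved and predicted miRNAs of which the 8 conserved ones gave the members. RNA of 3 biological replicates was taken with the NucleoSpin kit and pooled, per the labels' protocols, made into TruSeq small RNA libraries and sequenced on an Illumina Genome Analyser II. The way in which reads were aligned and counted was not given in the sources used here. Of these, 2 sheets had 1 empty line each, which was not used. Sheets were matched to libraries by the species and tissue in their names.

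Depth was the sum of listed conserved reads. Shares carry 95% Clopper-Pearson intervals and ratios conditional binomial intervals; both cover counting error only, since reads without molecular identifiers are not independent molecules. A floor of 3 reads stood in for libraries without an entry. Counts were summed by family, family and arm, or entry, and fitted in edgeR 4.0.16 (R 4.3.3; TMM, quasi-likelihood test, Benjamini-Hochberg adjustment at 0.05) with species and tissue as terms, for features with at least 10 reads in at least 2 libraries. The fits left 3 residual degrees of freedom. The SE given with edgeR values was the absolute log2 fold change divided by the square root of the test's F statistic. It is approximate, above all for small changes. Each tissue was set against the mean of the other 3. DESeq2 1.42.0 and limma 3.58.1 (voom) were alternatives, beside other scales, filters and left-out libraries. Shares were compared by exact two-sided sign-flip permutation over the 4 tissue pairs (scipy 1.17.1), in a family of 6 tests. The fitting code was tested on simulated data.

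Printed sequences were placed on the cores without gaps with at least 12 overlapping bases. The score was the number of overlapping bases less 3 for each mismatch, and a placement needed a score of at least 8. Entries named in full were, for each arm, up to 5 with most reads, and both miR165 entries; others are marked in the text as chosen after their values were seen. Of the entries that this rule names, 1 is not reported here. Likeness to miR166 named the 3 families with the highest correlation. The members, the list of 8 developmental families and the tests were chosen with earlier results of these data known.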

Additional observations from a re-analysis of the deposited data

Results flagged for a closer look

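miR166 did not move the same way between the species in every tissue. Its share of listed reads in C. frutescens was 0.859 times that in C. chinense in stem, 0.453 times in flower and 0.668 times in fruit, all lower, and 1.05 times in leaf, where it was higher. With the entries often traced to ribosomal or transfer RNA left out of the total, leaf stood at 75.5% in C. chinense and 75.0% in C. frutescens. Each ratio rests on 1 library against 1, with a counting interval in leaf of 1.04 to 1.06, and the difference between tissues was not tested, since no tissue has a second library of either species.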

How the results depend on the processing

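The miR166 and miR165 species differences stayed negative under all alternatives tried, from -1.79 to -0.47 and from -1.84 to -0.59. DESeq2 moved both past the threshold (-1.41 and -1.55). miR166 in flower turned to -0.19 with total listed reads and -0.14 without a read filter, and in fruit to 0.0628 with total listed reads. Leaving out 1 library at a time gave -0.0607 to 0.77 for miR165 in stem, -0.21 to 0.78 for miR166 5p, -0.17 to 0.76 for mtr-miR166c and -0.60 to 0.96 for gma-miR166c-5p; the last 2 were -0.063 and -0.079 with all libraries. With DESeq2 size factors, total listed reads, no filter, a filter of 50 reads and scaling on miR166 reads, mtr-miR166c was 0.12, 1.27, 0.50, 0.47 and 1.74 and gma-miR166c-5p 0.11, 1.21, 0.45, 0.46 and 1.66. The cause of these turns was not tested. The count of member entries called was 0, but 1 without a filter (gma-miR166k at 14.87) and 0 to 1 with a library left out: gma-miR166k without either leaf library, at 17.81 and 17.90, and mtr-miR166d without either fruit library. miR165 per 10000 miR166 reads differed by -0.269 over 4 pairs and by -0.415 to 0.0484 with a pair left out, turning without the flower pair, an alternative added after the data were seen. On TMM-scaled values the likeness to miR166 was 0.98 for miR165, 0.67 for miR2599, 0.24 for miR162, 0.24 for miR5303, 0.26 for miR472 and 0.64 for miR482; the last 3, at -0.88, -0.90 and -0.93, were the lowest on shares. The labels give no replicate numbers that the groups share, so single replicates could not be paired. The sign-flip tests pair libraries by tissue, and tissue is a term in all fits but that with species alone (miR166 -1.32, miR165 -1.58). With 1 library per species and tissue, biological spread within a tissue cannot be estimated, and names with a few reads are at the limit of detection.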

Other observations

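The bases printed before the 3p core gave a further description of the libraries. The 7 bases gacgauc of the 28-nt form are, from knowledge of the kit, also the end of the 5′ adapter of TruSeq small RNA libraries, and the last 4 of them preceded the core in the gma-miR166k form of C. chinense leaf too. The same 4 bases also stood before the printed part of the core in gra-miR166c of the C. frutescens libraries, with 1 to 4 reads each. In stem, fruit and leaf there, the base before these 4 was not that of the 28-nt form. It was u in those listings and in the gma-miR166k form of C. chinense leaf, against c in the 28-nt form. Whether such bases are part of the transcript or of the adapter was not tested.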
